A study of Mus musculus with 2 samples.

Results

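Natural killer (NK) cells without a detected UMI of Gzmb, the gene of the cytotoxic protease granzyme B, made up 362 of the 22044 barcodes kept from 2 libraries of CD45+ cells sorted from mouse tumours. A UMI is a unique molecular identifier, 1 count of 1 captured RNA molecule. The library labelled Ythdf2 cKO held 134 of these cells and the library labelled WT held 228. They were chosen on measured values, as barcodes with at least 200 genes, at most 10% mitochondrial UMIs, at least 1 UMI of Ncr1 and Klrb1c together and at least 3 UMIs of Nkg7. They also had no UMI of Cd3d, Cd3e, Cd3g or Csf1r, under 5 C1qa, C1qb and C1qc UMIs per 10000 and under 2 UMIs of Sult2b1, Dhrs3 and Serpinb6b together. The last condition was no UMI of Gzmb. Levels of these genes are therefore given as descriptions of the choice and not as results.

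NK cells are innate lymphocytes that kill infected or transformed cells by releasing perforin and granzymes, and that secrete interferon gamma and chemokines. In mice, maturing NK cells lose Kit, Il7r and most of Tcf7 and gain the integrin Itgam and the transcription factor Zeb2 and, late, Klrg1. Their granzyme B protein is made mainly after stimulation, by cytokines for example. A related population, type 1 innate lymphoid cells (ILC1), lives in tissues, carries the integrin Itga1 and is low in Eomes.

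Both libraries came from C57BL/6 mice, from tumours digested with collagenase and sorted for CD45, the pan-leukocyte surface protein, and were sequenced from the 5′ end of transcripts. One library was labelled as a conditional knockout (cKO) of Ythdf2, which encodes a cytoplasmic reader of the RNA modification m6A, and the series is about this reader in macrophages and tumour immunity. The tumour model, the Cre driver, the deleted exons, the age of the mice and the number pooled are not given in the sources used. With 1 library per label, no difference between labels has a replicate check, differences between the libraries other than genotype cannot be told apart from it, and no test was made. Brackets give exact 95% intervals, which cover counting error only. The kept barcodes had median depths of 8480 UMIs in the library labelled cKO and 5592 UMIs in the library labelled WT. The NK cells without Gzmb had medians of 5284 and 3426 UMIs in the same libraries, ranges of 2296 to 16364 and 1577 to 70180, and 787250 and 1036457 UMIs in all. The libraries shared 43 barcode sequences, and 1 NK cell without Gzmb in the library labelled WT carried one of them.

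Ythdf2 in these NK cells stood at 50.8 CPM (UMIs per 1000000 UMIs of the same cells) in the library labelled cKO and 56.9 CPM in the library labelled WT, a ratio of 0.893 [0.582 to 1.36]. In gated macrophages it stood at 444 CPM in the library labelled cKO and 76.3 CPM in the library labelled WT, a ratio of 5.82 [5.43 to 6.24], which goes against the label. Whether the counted 5′ reads lie within the deleted part of the gene is not given in the sources used here, so the labels were not checked by this gene.

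The cells carried NK genes that the choice did not use. Eomes, the transcription factor that marks NK cells against ILC1, stood at 338 CPM [299 to 381] in cells labelled cKO and 242 CPM [213 to 274] in cells labelled WT. A UMI of Eomes was found in 48.1% of the cells labelled cKO and 44.5% of the cells labelled WT after each cell was thinned to 2602 UMIs, against 1.61% and 1.43% of gated B cells labelled cKO and WT, which should lack it. Thinning left out 3 cells labelled cKO and 46 labelled WT, and before it the shares were 67.9% and 54.4%. The cytokine receptor chain Il2rb stood at 1303 CPM in cells labelled cKO and 1152 CPM in cells labelled WT, and the lectin receptor gene Klrd1 at 794 CPM in cells labelled cKO and 753 CPM in cells labelled WT. All 11 NK lineage genes outside the choice had UMIs in both libraries. They summed to 7028 CPM in cells labelled cKO and 5767 CPM in cells labelled WT. In NK cells with at least 1 Gzmb UMI they summed to 13449 CPM labelled cKO and 11417 CPM labelled WT. The median log2 ratio of the 11 genes in cells without over cells with Gzmb was -0.14 labelled cKO and -0.30 labelled WT. Gzma and Prf1 were the 2 genes at least 1.5-fold lower in each library, and 0 were higher. Gated CD8 T cells held 4058 and 2002 CPM of this list, so UMIs of it do not by themselves set the cells apart from T cells. Among genes of the choice, Nkg7 averaged 1272 CPM in cells labelled cKO and 1310 CPM in cells labelled WT, and Klrb1c 441 and 405 CPM.

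Gene lists of other cell types differed in how much of them these cells carried. Of the 5 ILC3 genes, no UMI was found in cells labelled cKO and 1 UMI in cells labelled WT. The lists of neutrophils, conventional dendritic cells, mast cells and basophils, and erythroid cells each summed to 35.6 CPM or less in either library. The 6 genes of type 2 innate lymphoid cells summed to 217 CPM, in 50% of cells labelled cKO, and 215 CPM, in 42.5% of cells labelled WT; Il1rl1, Il13 and Il5 were at 0 in both, and Gata3, Rora and Areg held all of these UMIs. The 5 B cell genes summed to 178 CPM, in 51.5% of cells labelled cKO, and 138 CPM, in 37.7% of cells labelled WT, with Ms4a1 at 0 in both, against 9164 and 8575 CPM in gated B cells labelled cKO and WT. The 4 plasmacytoid dendritic cell genes summed to 114 CPM in cells labelled cKO, where Siglech was at 0, and 211 CPM in cells labelled WT. T cell genes outside the Cd3 genes of the choice summed to 1105 CPM in cells labelled cKO and 845 CPM in cells labelled WT, against 3501 and 3050 CPM in gated CD8 T cells; several of them, such as Trbc1 and Trdc, are also transcribed in NK cells. The 6 macrophage and monocyte genes summed to 297 CPM in cells labelled cKO and 1128 CPM in cells labelled WT, against 7264 and 10378 CPM in gated macrophages. Lyz2, the lysozyme gene of myeloid cells, gave 47 UMIs in 37 cells labelled cKO and 345 UMIs in 103 cells labelled WT. The part of RNA from other cells in the differences between labels was not tested.

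In the library labelled WT, 3 of the 228 barcodes also carried pigment cell RNA. Each had at least 100 UMIs of Pmel, Dct, Mlana and Tyrp1 and between 33603 and 70180 UMIs in all, so these 3 barcodes held 159474 UMIs, 15.4% of all UMIs of the NK cells without Gzmb in that library. No other cell had more than 16648 UMIs or more than 11 of the 4 pigment genes. No barcode of this kind was among the cells labelled cKO. Counts over gene lists between labels are therefore given with and without these barcodes, a choice made after the data were seen.

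Many cells lay next to a threshold. With exactly 3 Nkg7 UMIs there were 20 cells labelled cKO and 38 labelled WT, at 271 and 175 CPM of Eomes. With 2 Nkg7 UMIs and all other conditions met there were 13 labelled cKO and 49 labelled WT, at 309 and 387 CPM. With exactly 1 UMI of Ncr1 and Klrb1c there were 21 cells labelled cKO and 52 labelled WT, at 484 and 364 CPM of Eomes. With 0 such UMIs and all other conditions met there were 13 labelled cKO and 21 labelled WT, at 199.6 and 362 CPM. With 1 UMI of the Cd3 genes, just outside, there were 22 labelled cKO and 27 labelled WT. With exactly 1 UMI of the Sult2b1 group, just inside, there were 77 labelled cKO and 104 labelled WT, and with 2, just outside, 54 labelled cKO and 69 labelled WT, at 280 and 318 CPM of Eomes. A Gzmb count of 0 is a statement about depth as well as about the cell. For a cell of median depth, 3 UMIs of Gzmb correspond to 5.68 UMIs per 10000 in the library labelled cKO and 8.76 per 10000 in the library labelled WT, or 568 and 876 CPM. The Gzmb-positive NK cells, chosen by the same conditions with at least 1 Gzmb UMI, averaged 1887 CPM of Gzmb in the library labelled cKO and 1019 CPM in the library labelled WT. A cell of median depth at the average Gzmb level of the Gzmb-positive cells labelled WT would thus lie close to that limit.

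NK cells without Gzmb were a smaller part of the NK compartment in the library labelled cKO. They were 134 of 1237 gated NK cells, or 10.8% [9.15 to 12.7], in the library labelled cKO and 228 of 723, or 31.5% [28.2 to 35.1], in the library labelled WT. As a share of all kept barcodes they were 1.36% [1.14 to 1.61] in the library labelled cKO and 1.87% [1.64 to 2.13] in the library labelled WT, a log2 ratio of -0.46. All gated NK cells were 12.5% of kept barcodes in the library labelled cKO and 5.94% in the library labelled WT. The group with 2 or more UMIs of Sult2b1, Dhrs3 and Serpinb6b made up 63.2% of gated NK cells labelled cKO and 44.7% of those labelled WT, and the Gzmb-positive group 25.9% and 23.8%. These shares are as deposited, at unequal depth. Gzmb itself stood at 505 CPM over all barcodes of the library labelled cKO and 78.0 CPM over those labelled WT. In gated B cells it stood at 19.3 CPM (10 UMIs) labelled cKO and 3.39 CPM (2 UMIs) labelled WT, and in gated macrophages at 8.86 and 2.47 CPM. Thinning does not remove such a difference, and the part of Gzmb RNA from other cells in these shares was not tested.

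The conditions on Gzmb and on the Sult2b1 group depend on depth, which differed between the libraries. With every gated NK cell thinned to 2746 UMIs before the Gzmb condition, the share of gated NK cells was 14.7% [12.8 to 16.8] in the library labelled cKO and 33.0% [29.2 to 37.0] in the library labelled WT, with 19 and 145 shallower cells left out. With all kept barcodes thinned before every condition, it was 20.3% [17.7 to 23] in the library labelled cKO and 42.6% [38.0 to 47.4] in the library labelled WT. The share of kept barcodes was then 2.02% [1.74 to 2.33] and 1.94% [1.67 to 2.23], so its direction did not hold at equal depth. The group with 2 or more UMIs of Sult2b1, Dhrs3 and Serpinb6b was then 35.5% [32.4 to 38.7] of gated NK cells labelled cKO and 32.2% [27.9 to 36.8] of those labelled WT, intervals that overlap. At each depth setting the cells labelled cKO had the lower share of NK cells.

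**Figure D1:**
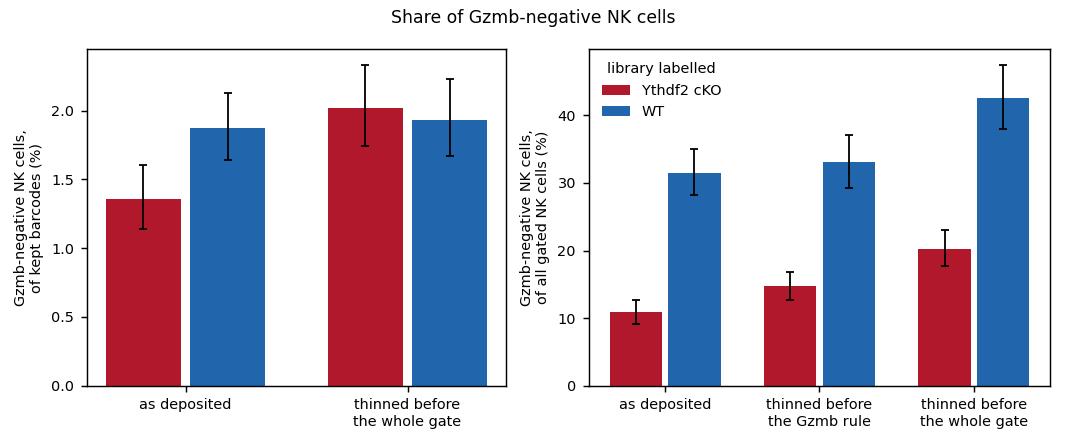
Shares of NK cells without Gzmb, in percent, by library, among kept barcodes and among gated NK cells, as deposited and at equal depth; bars are shares and lines are exact 95% Clopper-Pearson intervals. Among gated NK cells the library labelled Ythdf2 cKO is at 10.8% and the library labelled WT at 31.5%, and the order is the same after thinning, whereas among kept barcodes the order is not kept.

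Set against Gzmb-positive NK cells of the same library, NK cells without Gzmb had higher levels of genes of immature NK cells and lower levels of genes of mature NK cells, in both libraries. Gene groups were described by counting members of at least 10 CPM in either set of cells whose levels differed by 1.5-fold or more on log2(CPM + 1). Of all genes measured in the library labelled cKO, 9.23% were higher and 7.58% lower by this rule in NK cells without Gzmb; in the library labelled WT these were 16.7% and 7.27%, and 14.6% and 8.48% without the 3 pigment barcodes. Of the 8 immature NK genes, 6 were higher among cells labelled cKO and 5 among cells labelled WT, with median log2 ratios of 0.93 and 0.75 against 0.02 and 0.07 over all genes. Of 7 measured mature NK genes, 6 were lower in each library, with medians of -1.03 in the library labelled cKO and -1.70 in the library labelled WT. Without the pigment barcodes 6 of 8 immature genes were higher among cells labelled WT, at a median of 0.86, and 6 of 7 mature genes were lower and 1 higher, at -1.49. The lists of genes were chosen with earlier results of these data known, and no test was made. The cells without Gzmb were not the shallower ones, with median depths of 5284 and 4987 UMIs for cells without and with Gzmb labelled cKO, and 3426 and 3259 UMIs for those labelled WT.

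Il7r, the interleukin-7 receptor chain, stood at 62.2 CPM in cells without Gzmb and 14.8 CPM in Gzmb-positive cells labelled cKO, a ratio of 4.21 [2.57 to 7.06]. In cells labelled WT it stood at 69.5 CPM without Gzmb and 16.3 CPM with it, a ratio of 4.27 [2.25 to 8.92]. The levels without Gzmb were close in the 2 libraries, as were those with it. Tcf7, the transcription factor TCF-1 of early lymphocytes, was at 263 and 131 CPM in cells without and with Gzmb labelled cKO, and at 232 and 107 CPM in those labelled WT. Emb, the adhesion protein embigin, was at 775 CPM without Gzmb and 442 CPM with it in cells labelled cKO, and at 744 CPM without and 357 CPM with it in cells labelled WT. For Tcf7 and Emb, NK cells with 2 or more UMIs of the Sult2b1 group lay between, at 146 and 596 CPM labelled cKO. In the library labelled WT they were close to the cells without Gzmb, at 226 and 691 CPM. Ltb, which encodes lymphotoxin beta, stood 1.92-fold and 1.70-fold higher and Cd7 1.91-fold and 1.68-fold higher in cells without Gzmb, in the libraries labelled cKO and WT. Kit, the stem cell factor receptor, was 1.95-fold higher in the library labelled cKO and 1.45-fold higher in the library labelled WT. The list did not move as 1 block. Cd27 differed by 1.06-fold in cells labelled cKO and 1.15-fold in cells labelled WT.

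Among mature NK genes, Itgam stood at 41.9 CPM without Gzmb and 86.4 CPM with it in cells labelled cKO, and at 38.6 and 127 CPM in cells labelled WT. At 2602 UMIs per cell, a UMI of Itgam was found in 8.40% of cells without Gzmb and 21.7% of Gzmb-positive cells labelled cKO, and in 9.34% and 26.8% of those labelled WT. Before thinning the shares were 14.9% without Gzmb and 31.8% with it labelled cKO, and 14.5% and 34.3% labelled WT, and thinning left out 7 and 45 Gzmb-positive cells labelled cKO and WT. Cma1, a chymase gene best known from mast cells, was at 7.62 CPM without Gzmb and 52.3 CPM with it in cells labelled cKO, and at 6.75 and 59.2 CPM in cells labelled WT. Klrg1, an inhibitory receptor of late NK cells, was at 5.08 CPM without Gzmb and 27.3 CPM with it in cells labelled cKO, and at 4.82 and 23.7 CPM in cells labelled WT. Zeb2, a repressor needed for terminal maturation, was at 0.529 of its Gzmb-positive level in cells labelled cKO and 0.630 in cells labelled WT. Ly6c2 was the measured member that went both ways, at 0.586 of its Gzmb-positive level in cells labelled cKO and 1.35 times it in cells labelled WT.

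Tissue residency and ILC1 genes stood higher for 4 of 10 measured members in the library labelled cKO and 6 of 10 in the library labelled WT, with medians of 0.52 and 0.72; Il7r is in this list and in the immature list. Itga1, the collagen-binding integrin of ILC1 and tissue NK cells, was at 82.6 CPM without Gzmb and 36.4 CPM with it in cells labelled cKO, and at 84.9 and 37.0 CPM in cells labelled WT. Gpr183, an oxysterol receptor that guides lymphocyte positioning, was at 82.6 CPM without Gzmb and 46.6 CPM with it in cells labelled cKO, and at 137 CPM without and 29.6 CPM with it in cells labelled WT. Tmem176a was 2.88-fold and 1.66-fold higher in cells without Gzmb, in the libraries labelled cKO and WT. Cxcr6 and Tnfsf10, 2 other ILC1 genes, differed by under 1.5-fold in both libraries. Eomes itself was at 1.04 of its Gzmb-positive level in cells labelled cKO [0.900 to 1.21] and 0.790 in cells labelled WT [0.655 to 0.955].

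**Figure D2:**
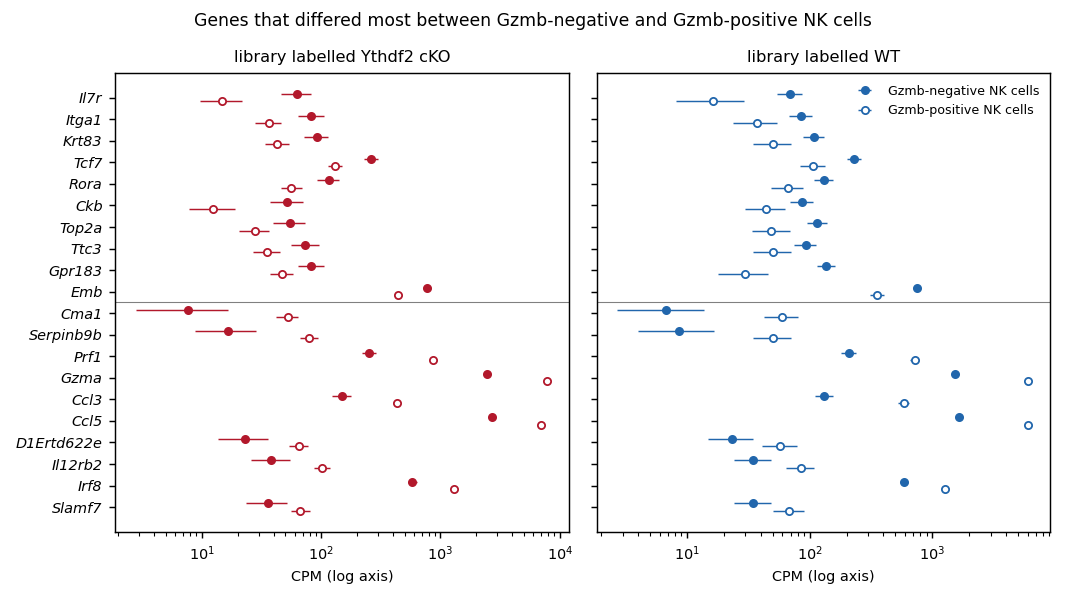
Levels in CPM on a log axis of the 10 genes per side that differed most in the same direction in both libraries, in NK cells without Gzmb (filled points) and Gzmb-positive NK cells (open points), 1 panel per library; lines are exact 95% Poisson intervals. Filled points lie to the right for Il7r (62.2 and 14.8 CPM without and with Gzmb in the library labelled Ythdf2 cKO) and to the left for Cma1 (7.62 and 52.3 CPM).

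Of the killing machinery beside Gzmb, the genes of granzyme A and perforin were lower in cells without Gzmb. Gzma, the gene of granzyme A, was at 2463 CPM without Gzmb and 7862 CPM with it in cells labelled cKO, and at 1536 and 6025 CPM in cells labelled WT. Prf1, which encodes the pore-forming protein perforin, was at 253 CPM without Gzmb and 862 CPM with it in cells labelled cKO, and at 208 CPM without and 718 CPM with it in cells labelled WT. Gzma was still found in most cells. At 2602 UMIs per cell it was detected in 75.6% of cells without Gzmb and 92.4% of Gzmb-positive cells labelled cKO, and in 57.7% and 87.4% of those labelled WT, against 5.65% and 4.29% of gated B cells labelled cKO and WT. Before thinning the shares were 79.1% and 94.1% labelled cKO, and 66.7% and 91.9% labelled WT. Of 16 measured genes of cytotoxic granules and their release, 5 were lower in the library labelled cKO, where 7.58% of all genes were lower. In the library labelled WT 2 of 16 were higher and 4 lower, beside 16.7% and 7.27% of all genes. Without the pigment barcodes 2 were higher and 3 lower of 17 in that library, beside 14.6% and 8.48%.

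Of 9 measured NK cytokine and chemokine genes, 3 were higher and 4 lower in cells without Gzmb in each library, with median log2 ratios of -0.03 in the library labelled cKO and -0.09 in the library labelled WT, against 9.23% of all genes higher and 7.58% lower in the library labelled cKO and 16.7% and 7.27% in the library labelled WT. The inflammatory chemokine genes were among the lower ones. Ccl5 was at 2692 CPM without Gzmb and 6960 CPM with it in cells labelled cKO, and at 1638 and 6036 CPM in cells labelled WT. Ccl4 was at 410 CPM without Gzmb and 1296 CPM with it in cells labelled cKO, and at 322 CPM without and 1578 CPM with it in cells labelled WT. Ccl3 was at 150 CPM without and 430 CPM with it in cells labelled cKO, and at 131 CPM without and 585 CPM with it in cells labelled WT. Ifng, the interferon gamma gene, was at 121 CPM without Gzmb and 231 CPM with it in cells labelled cKO, and at 134 and 231 CPM in cells labelled WT. Xcl1, a chemokine gene of NK cells that attracts dendritic cells, stayed high in both, at 1363 CPM without Gzmb and 1273 CPM with it in cells labelled cKO, and at 1164 and 1235 CPM in cells labelled WT. Tnf was higher in cells without Gzmb, at 44.5 against 21.0 CPM in cells labelled cKO and 28.9 against 17.8 CPM in cells labelled WT.

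Transcription factors and cytokine receptors held members of both directions. Of 19 measured NK transcription factors, 3 were higher and 3 lower in the library labelled cKO, and 3 higher and 4 lower in the library labelled WT. Over all genes 9.23% were higher and 7.58% lower in the library labelled cKO, and 16.7% and 7.27% in the library labelled WT. Without the pigment barcodes 4 were higher and 4 lower in the library labelled WT, beside 14.6% and 8.48% of all genes. Prdm1, which encodes Blimp-1, was at 0.276 of its Gzmb-positive level in cells labelled cKO and 0.304 in cells labelled WT. Irf8, a regulator of NK responses, was at 582 CPM without Gzmb and 1299 CPM with it in cells labelled cKO, and at 590 and 1273 CPM in cells labelled WT. Rora was at 116 and 56.3 CPM in cells labelled cKO, and at 130 and 66.6 CPM in cells labelled WT, and Ikzf2, which encodes Helios, was 1.53-fold and 1.64-fold higher without Gzmb. Il12rb2, the inducible interleukin-12 receptor chain, was at 38.1 CPM without Gzmb and 102 CPM with it in cells labelled cKO, and at 34.7 and 84.4 CPM in cells labelled WT. Among the other genes named by size, Krt83, Ckb and Ttc3 were higher and Serpinb9b, D1Ertd622e and Slamf7 lower in cells without Gzmb in both libraries, with Ckb at log2 ratios of 1.97 and 0.95 in the libraries labelled cKO and WT, the second being 1.55 without the pigment barcodes, Krt83 at log2 ratios of 1.08 and 1.09 in the libraries labelled cKO and WT and Serpinb9b, a protease inhibitor gene of killer cells, at -2.19 and -2.41. Genes of antigen presentation by MHC class I did not differ by 1.5-fold, with 0 of 19 measured members in either library.

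The levels also differed between steps of the Gzmb count above 0. The immature list summed to 2253, 2071, 1627 and 1150 CPM in cells labelled cKO with 0, 1, 2 to 4 and 5 or more Gzmb UMIs. Without the pigment barcodes it summed to 2380, 1430, 1265 and 1203 CPM in cells labelled WT. The mature list summed to 521, 525, 848 and 1098 CPM over these steps in cells labelled cKO, so it was nearly level between 0 and 1 UMI. In cells labelled WT without the pigment barcodes it summed to 769, 835, 1137 and 983 CPM, and so did not rise at every step. Gzma stood at 2463, 4821, 5883 and 9920 CPM over the same steps in cells labelled cKO and at 1789, 4028, 5680 and 11533 CPM in cells labelled WT. Prf1 stood at 253, 402, 544 and 1182 CPM in cells labelled cKO and at 243, 438, 650 and 1491 CPM in cells labelled WT. The 4 steps held 134, 69, 80 and 172 cells labelled cKO and 225, 56, 73 and 42 cells labelled WT.

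**Figure D3:**
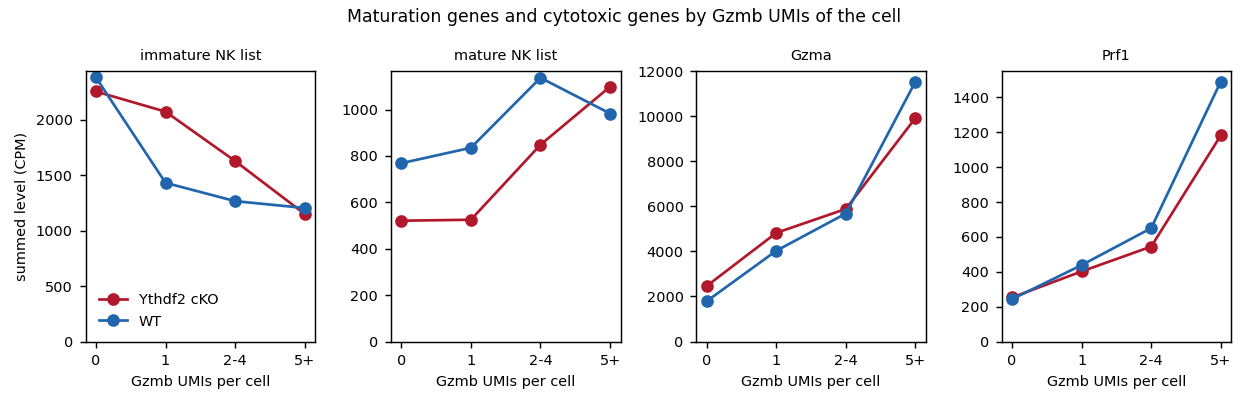
Summed CPM of the immature and mature NK lists and CPM of Gzma and Prf1 by Gzmb UMIs per cell, in 4 steps, for each library, with pigment barcodes left out of the library labelled WT. Gzma is higher at each step in both libraries, from 2463 to 9920 CPM in the library labelled Ythdf2 cKO and from 1789 to 11533 CPM in the library labelled WT, while the immature list is lower at each step. The mature list is lower at the last step than at the step before in the library labelled WT, at 983 and 1137 CPM.

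Immature and mature NK genes were found together in many of the NK cells without Gzmb. At 2602 UMIs per cell, 63.4% of 131 cells labelled cKO and 64.8% of 182 cells labelled WT had UMIs of both lists. A further 33.6% of the cells labelled cKO and 33.0% of those labelled WT had immature genes only, and 3.05% and 1.65% had mature genes only. The median cell had 6 UMIs of immature genes and 1 of mature genes in each library, against 3 and 2 in Gzmb-positive cells of each library. NK cells with 2 or more UMIs of the Sult2b1 group had medians of 4 and 1 in each library. No mature UMI was found in 32.1% of them labelled cKO and 30.0% labelled WT, against 33.6% and 33.5% of the cells without Gzmb. A low count of mature genes was thus not particular to cells without Gzmb. Gated B cells, which are not NK cells, also had UMIs of these lists, with medians of 2.5 immature UMIs in the library labelled cKO and 2 in the library labelled WT, and no mature UMI in 66.1% and 64.3% of them. Sharing of both lists within a cell was therefore not set apart from background, and a cell with no detected mature gene may carry such RNA below detection.

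Between labels, 609 of 8441 measured genes (7.21%) lay 1.5-fold or more higher and 1593 (18.9%) 1.5-fold or more lower in NK cells without Gzmb labelled cKO than in those labelled WT. Without the 3 pigment barcodes these were 633 of 8160 genes (7.76%) and 1051 (12.9%). The genes with the largest lower values were mostly pigment cell genes. Pmel, a melanosome matrix protein, gave 3 UMIs in cells labelled cKO and 1412 in cells labelled WT, of which 17 lay outside the 3 barcodes. Cck, which encodes the peptide cholecystokinin, gave 0 UMIs in cells labelled cKO and 832 in cells labelled WT, 830 of them in 1 barcode. Tyrp1 left 15 of its 541 UMIs, and Tyr, Sparc, Eps8, Syngr1 and Gpnmb left 6, 9, 2, 9 and 28 UMIs, in cells labelled WT outside those barcodes. Hk2 and Cyb5a, also among the 12 lowest, had log2 ratios of -2.66 and -2.62 with the 3 barcodes and -0.39 and -0.40 without them.

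Metabolic gene groups also rested on these barcodes. Glycolysis genes were lower in the library labelled cKO for 11 of 16 members with the 3 barcodes, beside 18.9% of all genes, at a median log2 ratio of -0.98. Without them 2 were higher and 1 lower, beside 7.76% and 12.9% of all genes, at a median of -0.10. Oxidative phosphorylation genes were lower for 6 of 18 with them and 0 of 18 without them, beside 18.9% and 12.9% of all genes.

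Proliferation genes sat in a few cells. Of the 141 UMIs of Mki67, Top2a, Birc5, Tpx2 and Stmn1 in cells labelled cKO, 94 were in 1 cell, and of the 485 UMIs in cells labelled WT, 419 were in 7 cells. No other cell had more than 4 UMIs of these genes among cells labelled cKO or 2 among cells labelled WT. The cell cycle list was lower in the library labelled cKO for 11 of 19 genes, beside 18.9% of all genes, with a median log2 ratio of -0.93. Its Mki67, the proliferation marker Ki-67, stood at 43.2 CPM in cells labelled cKO and 127 CPM in cells labelled WT. Without the pigment barcodes 9 of 18 were lower, beside 12.9% of all genes, with a median of -0.63. Most of the UMIs of the 5 proliferation genes thus came from 1 and 7 cells. Top2a was higher without Gzmb than with it in both libraries as deposited, at log2 ratios of 0.95 and 1.23 in the libraries labelled cKO and WT, but lower when cells were thinned before every condition, at -0.06 and -0.20.

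Few genes of NK identity and maturation differed between labels by 1.5-fold. Of the 11 NK lineage genes, 1 (Gzma) was at least 1.5-fold higher and 0 lower in cells labelled cKO with the 3 pigment barcodes, and 0 were higher and 1 (Styk1) lower without them, against 7.21% and 18.9% over all genes with them and 7.76% and 12.9% without them. Of the 8 immature genes 0 passed in either direction with or without them, and their median log2 ratio was 0.12 with and -0.10 without them. Of 4 measured mature genes 1 was lower with and without them, Ly6c2, at 193 CPM in cells labelled cKO and 342 CPM in cells labelled WT. Of 10 measured ILC1 genes 1 was lower and of 20 activating receptors and adaptors 1 was lower, and 0 of either list were higher, with and without them. The cytotoxic list had 2 higher and 4 lower members of 16 with the 3 pigment barcodes and 0 higher and 3 lower of 17 without them. One of these, Gzmc, which encodes granzyme C, gave 106 UMIs in cells labelled cKO and 472 in cells labelled WT, of which 388 lay in 2 barcodes.

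**Figure D4:**
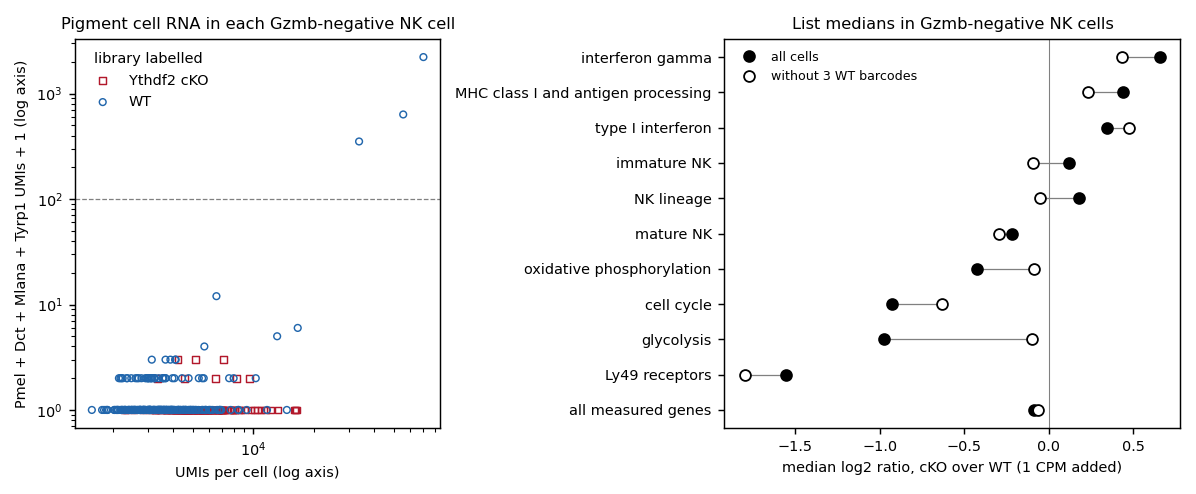
Pigment gene UMIs + 1 against total UMIs of each NK cell without Gzmb, on log axes, with a dashed line at 100, and the median log2 ratio of the libraries labelled Ythdf2 cKO over WT for gene lists, with and without the pigment barcodes. The 3 barcodes of the library labelled WT stand apart at 33603 UMIs and above, and the glycolysis median is -0.98 with them and -0.10 without them.

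Among the genes named by size, the largest ratios between labels that were kept without the pigment barcodes were those of Ly49 receptors. These lectin-like receptors, encoded by the Klra genes in a cluster on chromosome 6, read MHC class I on other cells, most to inhibit and some to activate the NK cell, and each NK cell uses some of them. Klra8, which encodes Ly49H, the activating receptor for a cytomegalovirus protein (minus strand, 130115226 to 130129898, GRCm38), gave 0 UMIs in 134 cells labelled cKO and 407 UMIs in 79 of 228 cells labelled WT. A level of 3 UMIs over the group labelled cKO would be 103-fold lower than the level in cells labelled WT. The exact interval of the ratio of cKO over WT reached up to 0.0120. Of these 407 UMIs, 395 were outside the pigment barcodes. Klra4, which encodes the activating receptor Ly49D (minus strand, 130043731 to 130067271), gave 12 UMIs in 7 cells labelled cKO and 378 UMIs in 71 cells labelled WT, or 15.2 and 365 CPM.

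Klra3, which encodes the inhibitory receptor Ly49C (minus strand, 130323289 to 130337574), went the other way. It stood at 343 CPM [303 to 386] in cells labelled cKO and 54.0 CPM [40.8 to 70.2] in cells labelled WT, a ratio of 6.35 [4.75 to 8.62]. At 2602 UMIs per cell it was found in 38.9% [30.5 to 47.8] of cells labelled cKO and 8.79% [5.11 to 13.9] of cells labelled WT, whereas a UMI of Klra8 was found in 0 of 131 cells labelled cKO and in 35.2% [28.2 to 42.6] of cells labelled WT. The count of 0 allows up to 2.78% of cells with a UMI at this depth, which does not limit the share of cells that express the gene. In gated B cells a UMI of Klra8 was found in 0 of 124 cells labelled cKO and 1.43% of cells labelled WT. Before thinning Klra3 was found in 43.3% and 10.1% of cells labelled cKO and WT, and Klra8 in 0% and 34.6%. Klra9 was at 47.0 CPM in cells labelled cKO and 157 CPM in cells labelled WT, Klra1 at 31.8 and 84.9 CPM, and Klra7, which encodes Ly49G, at 187 and 276 CPM. Over the 6 measured Klra genes, 1 was higher and 4 lower with the pigment barcodes, beside 7.21% and 18.9% of all genes. Without them 1 was higher and 5 lower, beside 7.76% and 12.9% of all genes.

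The other NK cells had the same directions for these genes except Klra7. In Gzmb-positive cells Klra7 stood at 319 CPM in the library labelled cKO and 303 CPM in the library labelled WT. Over all gated NK cells Klra8 gave 4 UMIs in 1237 cells labelled cKO and 1194 UMIs in 723 cells labelled WT, and Klra3 gave 2549 and 237 UMIs. In Gzmb-positive cells Klra3 stood at 375 CPM in the library labelled cKO and 111 CPM in the library labelled WT, and Klra4 at 23.9 and 601 CPM. The Klra genes are near-identical copies that vary between mouse strains, so reads can be split between them by the counting, and their single values are uncertain. Over all barcodes of each library Klra8 gave 8 UMIs in the library labelled cKO and 3262 in the library labelled WT. The labels give C57BL/6 for both libraries, and whether the mice shared the same alleles of this cluster was not tested. Genotype, library and strain background cannot be told apart in this difference.

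**Figure D5:**
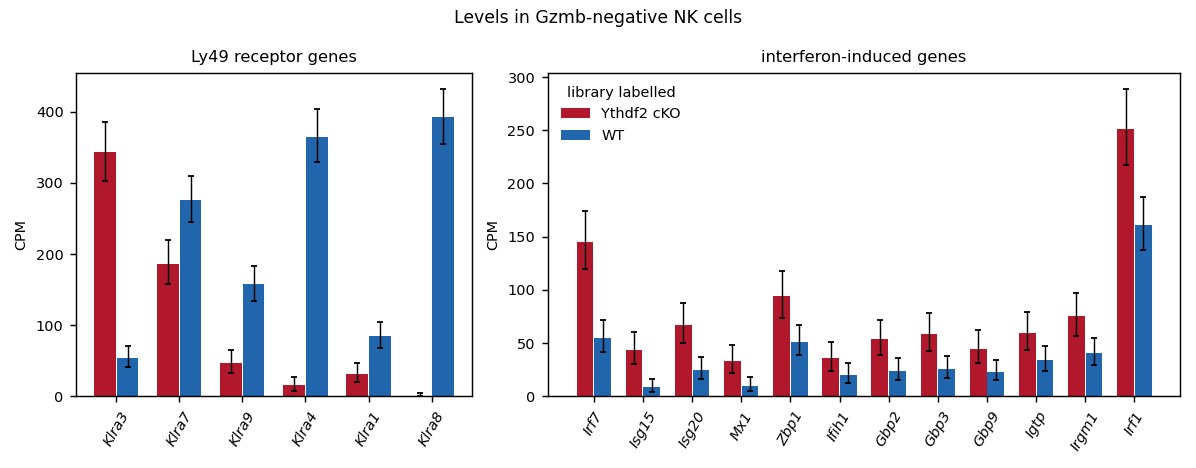
Levels in CPM of Klra genes and of interferon-induced genes in NK cells without Gzmb, by library; bars are levels and lines exact 95% Poisson intervals. Klra8 and Klra4 are lower and Klra3 higher in the library labelled Ythdf2 cKO (343 CPM) than in the library labelled WT (54.0 CPM), and Irf7 stands at 145 CPM and 55.0 CPM.

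Of the genes induced by interferons, more were higher than lower in the library labelled cKO in the values as deposited. Interferons act on their target genes through transcription factors, and IRF9-containing complexes bind the interferon-stimulated response element (ISRE), which has the core GAAANNGAAA. Of 19 measured interferon gamma response genes, 13 lay 1.5-fold or more higher and 1 lower in cells labelled cKO, against 7.21% and 18.9% of all genes, with a median log2 ratio of 0.66. Without the pigment barcodes 8 were higher and 1 lower, against 7.76% and 12.9%, with a median of 0.43. Of 21 measured type I interferon genes, 7 were higher and 1 lower with and without those barcodes, with medians of 0.34 and 0.47.

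Of the 14 genes of the 2 interferon lists that were higher with and without the pigment barcodes, 9 have a promoter in the RefSeq table (GRCm38.p6), and 7 of these (77.8%) hold the core on either strand between 250 bases before and 50 bases after the start. Of the 40 measured genes of both lists, 28 have a promoter in the table, and 17 of these 28 genes (60.7%) hold the core. The share was 4.20% of the 6692 measured genes with a promoter in the table and 3.44% of all 32851 promoters in the table. Irf7 and Isg20 are the higher genes with a promoter in the table that lack the core in the window. A match of letters describes the window and is not a shown binding site. The promoters of 3 of the higher genes are given because they hold the core, with the core in capitals and read 5′ to 3′ on the strand of the gene. Isg15 (chr4:156200769-156201068, minus strand) has 3 overlapping copies, Irgm1 (chr11:48871371-48871670, minus strand) has 2 overlapping copies and Gbp2 (chr3:142620413-142620712, plus strand) has 1 on the other strand, where it reads TTTCNNTTTC.
Isg15: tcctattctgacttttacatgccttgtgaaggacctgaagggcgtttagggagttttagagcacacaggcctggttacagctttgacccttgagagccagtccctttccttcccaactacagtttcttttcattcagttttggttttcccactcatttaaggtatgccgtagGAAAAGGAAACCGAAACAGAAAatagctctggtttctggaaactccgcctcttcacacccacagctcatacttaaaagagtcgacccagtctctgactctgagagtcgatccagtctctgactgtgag
Irgm1: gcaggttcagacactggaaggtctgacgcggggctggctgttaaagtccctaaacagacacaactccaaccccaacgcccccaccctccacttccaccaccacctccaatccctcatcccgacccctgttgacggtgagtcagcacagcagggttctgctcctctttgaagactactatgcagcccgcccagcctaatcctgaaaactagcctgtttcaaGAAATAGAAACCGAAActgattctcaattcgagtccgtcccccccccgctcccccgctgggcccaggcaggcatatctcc
Gbp2: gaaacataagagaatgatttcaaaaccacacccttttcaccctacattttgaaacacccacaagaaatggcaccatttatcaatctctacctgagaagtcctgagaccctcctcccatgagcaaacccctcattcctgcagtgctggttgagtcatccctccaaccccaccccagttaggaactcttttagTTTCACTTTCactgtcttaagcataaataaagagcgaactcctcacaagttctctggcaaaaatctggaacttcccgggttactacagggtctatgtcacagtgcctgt

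Isg15, which encodes a ubiquitin-like protein, gave 34 UMIs in cells labelled cKO and 9 UMIs in cells labelled WT, or 43.2 CPM [29.9 to 60.4] and 8.68 CPM [3.97 to 16.5]. Irf7, the master regulator of type I interferon responses, was at 145 CPM [119 to 174] in cells labelled cKO and 55.0 CPM [41.7 to 71.3] in cells labelled WT, a ratio of 2.63 [1.90 to 3.69]. These intervals do not overlap for either gene. At 2602 UMIs per cell, Irf7 was found in 27.5% [20.05 to 36.0] of cells labelled cKO and 17.6% [12.3 to 23.9] of cells labelled WT, and these intervals overlap; gated B cells had 8.87% and 10.0%. Before thinning the shares were 42.5% of cells labelled cKO and 21.1% of cells labelled WT. The antiviral gene Mx1 was at 33.0 CPM in cells labelled cKO and 9.65 CPM in cells labelled WT, the exonuclease gene Isg20 at 67.3 and 25.1 CPM, and Zbp1, a sensor of left-handed nucleic acids, at 94.0 and 51.1 CPM. Ifit1, Ifit3 and Usp18, also type I interferon genes, were not among the higher ones, with ratios of 1.19 [0.696 to 2.04], 1.13 [0.626 to 2.02] and 1.04 [0.596 to 1.79]. The 1 lower member was Bst2, the tetherin gene, with the pigment barcodes, at 13.97 CPM in cells labelled cKO and 58.9 CPM in cells labelled WT, but its ratio was 1.53 [0.561 to 4.39] without them. The 1 lower member without them was Ifi27l2a, at 169 CPM in cells labelled cKO and 251 CPM in cells labelled WT with them, a ratio of 0.673 with and 0.597 without them.

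Among interferon gamma genes, the guanylate-binding protein genes Gbp2 and Gbp3 were at 53.4 and 58.4 CPM in cells labelled cKO and at 24.1 and 26.1 CPM in cells labelled WT. Their immunity-related GTPase relatives Igtp and Irgm1 were at 59.7 and 74.9 CPM in cells labelled cKO and at 33.8 and 40.5 CPM in cells labelled WT. Irf1, an interferon-induced transcription factor gene, was at 252 CPM in cells labelled cKO and 161 CPM in cells labelled WT, a ratio of 1.56 [1.26 to 1.93], and at 1.35 [1.09 to 1.68] without the pigment barcodes. Of 19 MHC class I and processing genes, 2 were past 1.5-fold higher with the pigment barcodes, at a median log2 ratio of 0.44, and 1 without them, at a median of 0.23, beside 7.21% and 7.76% of all genes. The 1 that passed both ways, the nonclassical gene H2-T22, was at 161 CPM in cells labelled cKO and 90.7 CPM in cells labelled WT.

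In Gzmb-positive NK cells the type I list had 17 of 21 measured genes higher in the library labelled cKO, at a median log2 ratio of 1.07, where 7.89% of all genes were higher, and the interferon gamma list 10 of 18. The difference between the Gzmb-negative and Gzmb-positive cells in this was not tested. Beside these values, the macrophage and monocyte genes in cells without Gzmb summed to 297 CPM in the library labelled cKO and 1128 CPM in the library labelled WT, and their part was not tested. The interferon medians in cells without Gzmb were smaller under some other settings. With every cell weighted equally and no thinning they were 0.13 for type I and 0.34 for interferon gamma genes. The part of depth in this was not tested. With NK cells thinned before the Gzmb condition the type I and interferon gamma medians were 0.09 and 0.38, and with barcodes thinned before every condition 0.01 and 0.25. In cells without Gzmb thinned to 2602 UMIs, the type I list averaged 2.18 UMIs per cell labelled cKO and 2.26 labelled WT, so it was not higher in the library labelled cKO. The interferon gamma list averaged 5.52 and 5.03 UMIs, with a median of 5 in both.

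By size of the ratio, the 12 highest genes were Klra3, Irf7, Lars2, Xaf1, Inpp4b, Ogfr, Irgm1, Zbp1, H2-T22, Gse1, Hmgn5 and Ncf4, and all 12 stayed past 1.5-fold without the pigment barcodes. Lars2, a mitochondrial leucyl-tRNA synthetase gene, stood at 1062 CPM in cells labelled cKO and 447 CPM in cells labelled WT, and it was also higher in gated B cells, at 1076 CPM in the library labelled cKO and 571 CPM in the library labelled WT. Inpp4b, which encodes a phosphoinositide phosphatase, was at 100 and 52.1 CPM in cells labelled cKO and WT, and its direction turned, to a log2 ratio of -0.27, when barcodes were thinned before every condition. Xaf1, an interferon-induced gene, was at 76.2 CPM in cells labelled cKO and 38.6 CPM in cells labelled WT. By the same rule without the pigment barcodes, the lowest genes included Klra8, Klra4, Gzmc, Klra9, Klra1, Mki67, Tpd52 and Cish. Cish, a feedback inhibitor of interleukin-2 and interleukin-15 signalling, was at 44.5 CPM in cells labelled cKO and 107 CPM in cells labelled WT without those barcodes, and Tpd52 at 40.6 and 99.2 CPM.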

How the data were processed

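CD45+ tumour cells were profiled with 10x 5′ chemistry in 1 library per label. The authors deposited counts, 1 per captured molecule, for each gene and barcode, made with Cell Ranger 5.0.1 against mm10, per the submitters' processing notes, which also name Seurat 4.0.4; the matrix header names cellranger 5.0.0. The annotation release is not given in the sources used here. GRCm38 coordinates come from GENCODE vM21, which holds 30934 of the 31053 gene identifiers.

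The gate was applied to raw counts in Python 3.11.15 (NumPy 2.4.6, SciPy 1.17.1, pandas 2.3.3). UMIs were summed per gate and library, scaled to CPM and compared as log2 ratios with a pseudocount of 1 CPM, over genes of at least 10 CPM in either group. CPM intervals are exact Poisson, shares Clopper-Pearson, and ratios exact conditional binomial. The scripts were tested on simulated data. Cells are not replicates, so no test was made.

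Between labels, 12 genes per side were named by the size of their log2 ratio, from those of at least 50 CPM in either library and 100 UMIs over both. Between cells without and with Gzmb, they were the 10 genes per side with the largest smaller ratio of the 2 libraries, where both had the same sign and at least 50 CPM in either cell group. Left out of both were genes of the gate, mitochondrial, ribosomal protein, haemoglobin, antigen receptor segment, unnamed and sex-linked genes, and genes under 0.2 of their level in gated macrophages, B cells or melanocytic cells. Examples from lists, Tpd52, Cish, Gzmc and the genes chosen to describe a list came after values were seen. The members and the lists were chosen with earlier results of these data known. Gated macrophages, B cells and CD8 T cells were also defined by marker UMIs.

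Cells were thinned without replacement to 2602 UMIs for shares of cells with a UMI, and to 2746 UMIs for the depth alternatives, shallower cells being left out. Doublets were not removed in the main values. Scrublet in scanpy 1.11.5 called 0 and 2 barcodes in the libraries labelled cKO and WT at its automatic threshold, so as an alternative the 779 and 1187 highest scores were removed, at 0.8% per 1000 barcodes.

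The other alternatives were at least 500 genes or at most 5% mitochondrial UMIs per barcode, at least 5 Nkg7 UMIs, at least 2 UMIs of Ncr1 and Klrb1c, Eomes required, no UMI of T cell receptor, Cd8a or Cd4 genes, barcodes of both libraries left out, a median-of-ratios size factor, equal weight per cell, 10 CPM added in place of 1 CPM, and genes of any level used. Leaving out the pigment barcodes and thinning before every condition were added after the data were seen. Some genes of the lists are not reported here.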

Additional observations from a re-analysis of the deposited data

Results flagged for a closer look

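Gene lists had medians of opposite sign in the libraries when NK cells without Gzmb were set against Gzmb-positive NK cells. For type I interferon genes the median log2 ratio was -0.40 among cells labelled cKO and 0.15 among cells labelled WT. Of 21 measured genes in cells labelled cKO, 0 lay 1.5-fold or more higher and 7 lower in cells without Gzmb, and of 20 in cells labelled WT, 6 lay higher and 4 lower. Over all genes 9.23% lay higher and 7.58% lower in cells labelled cKO, and 16.7% and 7.27% in cells labelled WT. Without the 3 pigment barcodes 6 of 21 type I genes lay higher and 2 lower in cells labelled WT, at a median of 0.16, beside 14.6% and 8.48% of all genes. Usp18, which encodes a protease that removes ISG15, was at 33.0 and 39.8 CPM in cells without and with Gzmb labelled cKO, and at 31.8 and 8.88 CPM in those labelled WT. The macrophage and monocyte list had medians of -0.23 in the library labelled cKO and 0.28 in the library labelled WT, or 0.51 without the pigment barcodes. The list of cytokine receptors and signalling had medians of -0.17 in the library labelled cKO and 0.11 in the library labelled WT. Each of these differences between libraries was not tested, since there is 1 library per label.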

How the results depend on the processing

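No paired analysis was possible because each label has 1 library, and no library could be left out. Of 273 values of the shares, counts and list medians under the 15 alternatives, 238 stayed close to the main value. Close meant within 1.5-fold for counts of genes. For shares and medians it meant within an interval around the main value, which for medians reached at most 1.5-fold to either side. The sign differed from the main value in 11 of the 273. Weighting every cell equally gave cKO over WT medians (log2) of 0.13 for type I interferon, 0.34 for interferon gamma, 0.22 for MHC class I and -0.19 for glycolysis, and a type I median without over with Gzmb of -0.66 in the library labelled cKO. A pseudocount of 10 CPM gave 238 genes higher and 1005 lower, and no filter on low values gave 1723 and 4152. Asking for 2 Ncr1 and Klrb1c UMIs gave a mature NK median of 0.35. Asking for no T cell receptor, Cd8a or Cd4 UMI left 2 cells labelled cKO and 16 labelled WT, a log2 ratio of the shares of kept barcodes of -2.70 and no expression value, since under 20 cells remained, a minimum set after the data were seen. Asking for Eomes gave -0.14 for that log2 ratio, a cell cycle median of -2.14, a type I median without over with Gzmb of -0.74 labelled cKO and an ILC1 median of 1.55 labelled WT. Thinning before the Gzmb condition gave a log2 ratio of the shares of NK cells of -1.17, 994 genes higher, and medians of 0.087 for type I interferon, 0.38 for interferon gamma, 0.18 for MHC class I, -0.20 for glycolysis and -2.37 for Ly49 receptors. Leaving out the pigment barcodes gave 1051 genes lower, 0.23 for MHC class I and -0.10 for glycolysis. Thinning before every condition gave log2 ratios of the shares of 0.062 of kept barcodes and -1.07 of NK cells, and medians of 0.0073, 0.25, 0.14, -0.22, 0.062, -0.26 and 0.39 for type I interferon, interferon gamma, MHC class I, cell cycle, glycolysis, immature NK and mature NK genes, and -0.77 for type I without over with Gzmb labelled cKO. Named genes turned in direction for Inpp4b (-0.27) and Cyb5a (0.43) under that thinning, and for Top2a without over with Gzmb, at -0.065 and -0.20 labelled cKO and WT, and at -0.11 labelled cKO with thinning before the Gzmb condition. The cause of these moves was not tested. Depth limits the Gzmb condition itself, and values of genes under 50 CPM rest on fewer than 40 UMIs in cells labelled cKO.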

Other observations

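MHC class II genes were found in NK cells without Gzmb. H2-Aa stood at 281 CPM, in 26 cells, in the library labelled cKO and at 81.0 CPM, in 38 cells, in the library labelled WT. Cd74, the invariant chain, stood at 605 CPM in cells labelled cKO and 222 CPM in cells labelled WT. In gated macrophages, H2-Aa stood at 3282 CPM in the library labelled cKO and 1200 CPM in the library labelled WT. Ciita, the transactivator of these genes, was at 19.05 CPM [10.7 to 31.4] in NK cells without Gzmb labelled cKO and 4.82 CPM [1.57 to 11.3] in those labelled WT. The part of RNA from other cells in these values was not tested.

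The ribosomal protein gene Rpl29, chosen after its values were seen, stood at 146 CPM in NK cells without Gzmb labelled cKO and 1193 CPM in those labelled WT. The direction was the same in the other gates, at 120 CPM in the library labelled cKO and 1140 CPM in the library labelled WT for macrophages, 108 and 1009 CPM for B cells, and 167 and 1496 CPM for CD8 T cells.

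Doublet scores marked 0 of 134 NK cells without Gzmb in the library labelled cKO and 12 of 228 (5.26%) in the library labelled WT, among them 1 of the 3 pigment barcodes. Over all kept barcodes 7.90% were marked in the library labelled cKO and 9.75% in the library labelled WT, shares that were fixed by the rate used.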
